A study of Mus musculus with 2 samples.

Results

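The genes described here are 10 mouse genes that protect cells from oxidative stress: Hmox1, Gclc, Gclm, Gsr, Txn1, Txnrd1, Prdx1, Cat, Sod1 and Sod2. They were taken by name, as antioxidant enzymes and targets of the transcription factor NRF2, and every probe set (the group of short probes that reads 1 transcript) that the annotation of the MG_U74Av2 array gives to 1 of them alone was read. This left 9 of the 10 genes, with 10 probe sets, out of 8251 genes named on the array. The 2 probe sets of Prdx1 are annotated to a further gene as well, so Prdx1 has no value here. RNA came from 3T3 cells, a permanent line of mouse embryo fibroblasts, in 2 groups of 1 Affymetrix array each, both in serum-free DMEM. One group was kept in suspension, without attachment, for a time that the sources used here do not state. The other was plated for 30 min on fibronectin at 10 µg/ml, a matrix glycoprotein to which fibroblasts attach through integrins. The text of the series speaks of 2 replicates beside its 2 samples, while the labels give 1 array per group, and those 2 arrays are what was read here. The labels name genes that fibronectin induces, and MAPK signalling, as the interest of the study.

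Reactive oxygen species arise in respiration and in signalling, adhesion included, and cells remove them in steps. Superoxide dismutases turn superoxide into hydrogen peroxide, which catalase, peroxiredoxins and glutathione peroxidases break down. Peroxiredoxins and glutathione peroxidases are recharged by thioredoxin and glutathione, which their reductases restore with NADPH. Many of the genes are switched on by NRF2 (Nfe2l2), which the adaptor KEAP1 marks for degradation in unstressed cells and which binds antioxidant response elements as a partner of small MAF proteins. BACH1 occupies such elements as a repressor, most clearly at Hmox1.

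Values are MAS5 signals on a linear scale, scaled so that both arrays have the same trimmed mean, and ratios are log2 of fibronectin over suspension. Signals below a common floor of 490, the mean of the arrays' 40th percentiles, were set to it. A gene with a signal at or above the floor in at least 1 array counts as measured, which held for 6385 genes and for all 9 genes with a probe set of their own. The 34 negative controls (antisense probe sets and those for bacterial and yeast transcripts) had a 95th percentile of 1403 in suspension and 1873 on fibronectin, and the highest stood at 1452 and 2527. A signal is said to lie in the range of the negative controls where it is below the higher of these, 2527. With 1 array per group there is no replicate error and no test, and "higher" and "lower" compare 1 array with the other. The spread between probe sets of the same gene gives a partial measure of error, which leaves out the spread between cultures. Its SD was 0.60 on the log2 scale over 672 genes with several probe sets above the floor, and 0.41 over the 147 genes whose probe sets had a mean signal above all negative controls. The arrays differed in other ways too. They came from different chip lots and differed in operator, scan day and fluidics module, which cannot be told apart from the group. The ratio of 3′ to 5′ signal, a sign of RNA quality, was 1.79 in suspension and 1.19 on fibronectin for beta-actin and 1.47 and 0.84 for Gapdh, and its part in the ratios below was not tested. Of 10 fibroblast markers, 6 stood above all negative controls in both arrays, Col1a1 and Col1a2 among them, while Thy1 lay below the floor in both. Of the 15 markers of epithelial, blood, erythroid and endothelial cells on the array, 0 stood above all negative controls in both arrays.

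The NRF2 binding element has the core letters TGACNNNGC, and the start regions of 7 of the 10 genes (Gclm, Txn1, Txnrd1, Prdx1, Cat, Sod1 and Sod2) were searched for it on both strands, over the 250 bases before each start in RefSeq (build GRCm38.p6). Gclm, Txnrd1, Prdx1 and Sod1 held a match, each on the reverse strand, in 1 window per gene. Of all 32851 such windows 10.2% held one, and of all 27025 genes 11.5%. The match of Prdx1, but none of the other 3, overlaps an AP-1 motif (TGANTCA), which 6.75% of all windows hold. The 3 sequences below are shown because they set the same element beside genes whose ratios differ: Gclm and Txnrd1, which were higher on fibronectin, and Sod1, which was lower. Gclm reached the floor on fibronectin alone, so its ratio could not have been below 0. The ratio of Sod1 was 0.80 times the SD between probe sets of bright genes, so the contrast in direction is weak. Capitals mark the match, read here as GCNNNGTCA, and the run of Gclm stops at the earliest annotated start of the gene. A match describes these letters and does not show binding.
Gclm, chr3:122245307-122245486, plus strand: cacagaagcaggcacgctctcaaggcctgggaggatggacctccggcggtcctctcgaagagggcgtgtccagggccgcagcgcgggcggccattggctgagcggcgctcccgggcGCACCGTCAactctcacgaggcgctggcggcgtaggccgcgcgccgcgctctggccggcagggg
Txnrd1, chr10:82858956-82859205, plus strand, the second of its 3 annotated starts: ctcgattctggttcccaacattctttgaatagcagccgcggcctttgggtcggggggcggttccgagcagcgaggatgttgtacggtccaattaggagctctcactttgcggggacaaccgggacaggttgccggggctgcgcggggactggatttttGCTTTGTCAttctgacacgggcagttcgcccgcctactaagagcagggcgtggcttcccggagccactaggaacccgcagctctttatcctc
Sod1, chr16:90220512-90220761, plus strand: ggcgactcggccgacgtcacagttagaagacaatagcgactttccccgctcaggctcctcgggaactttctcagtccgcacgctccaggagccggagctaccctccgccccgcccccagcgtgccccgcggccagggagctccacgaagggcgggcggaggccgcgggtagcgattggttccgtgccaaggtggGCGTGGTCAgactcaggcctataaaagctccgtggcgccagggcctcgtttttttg

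The 9 genes did not share a direction. Hmox1 stood 2.82-fold higher on fibronectin and was the only one past 2-fold. Gclm, Sod2, Txnrd1 and Gsr were higher by less, and Cat, Txn1, Gclc and Sod1 were lower. By 1.5-fold or more, 4 genes were higher, with Gclm as a bound, and 2 were lower, Cat and Txn1. Cat is counted by its brighter probe set, while its other one read at least 1.30-fold higher. Of all measured genes 15.9% stood higher by 1.5-fold or more and 22.6% lower, and 5.79% were past 2-fold on the higher side and 9.27% on the lower. The count past 2-fold rests on Hmox1 alone. The median log2 ratio was 0.49, against -0.09 over all measured genes. It was 0.081 with the floor raised to the 60th percentile, where Gclm was not measured, and 0.019 when 9 hybridisation spikes set the scale. The medians of all measured genes were -0.06 and -0.51 under these settings, in that order.

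**Figure D1:**
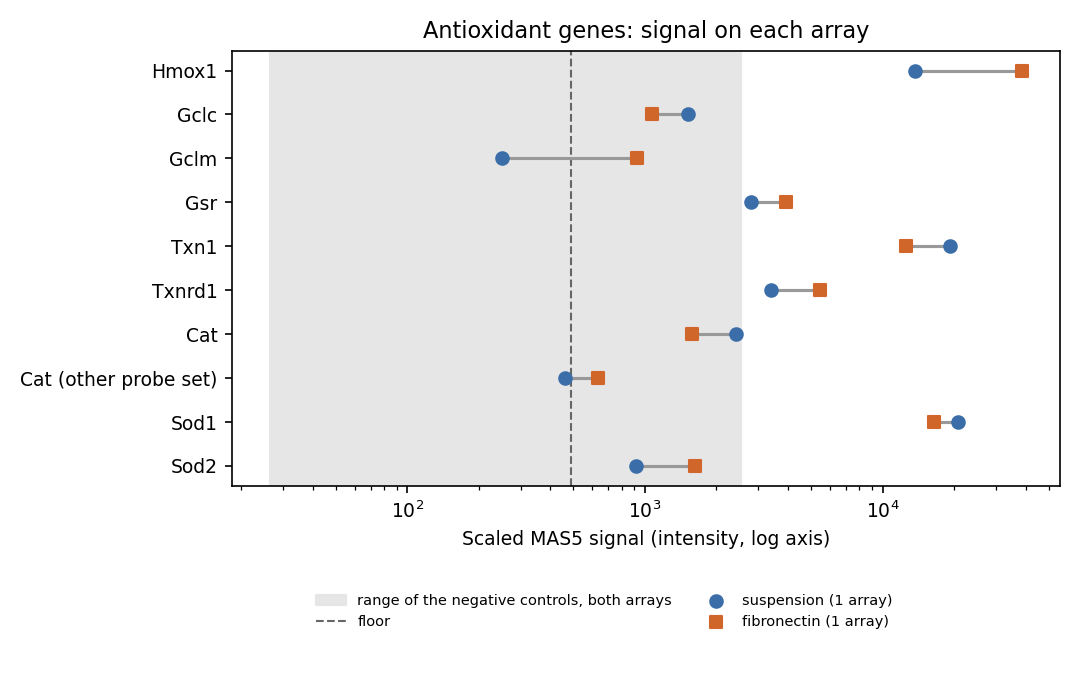
Scaled MAS5 signal (log axis) of each probe set of the 9 genes in suspension (circles) and on fibronectin (squares), 1 array each, with the floor of 490 (dashed) and the range of the negative controls in both arrays (grey). Hmox1, Gsr, Txn1, Txnrd1 and Sod1 lie above every negative control in both arrays, while Gclc, Gclm, Sod2 and both probe sets of Cat lie within their range.

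Hmox1 encodes heme oxygenase 1, the inducible enzyme that opens the heme ring and frees iron, carbon monoxide and biliverdin, the precursor of the antioxidant bilirubin. Its signal was 13709 in suspension and 38703 on fibronectin, a log2 ratio of 1.497. The gene was thus already well above every negative control in detached cells, and brighter still after plating. The difference was 3.64 times the SD between probe sets of bright genes. Of the 1518 genes above all negative controls in both arrays, 3.49% passed 2-fold on the higher side and 0.725% on the lower, and 6 had a ratio as high as that of Hmox1 or higher, itself included. Among 100 genes with a mean log2 signal within 0.5 of its own, Hmox1 itself included, it had the highest ratio, and the 5th and 95th percentiles of their ratios were -0.57 and 0.95. Across the other scalings its fold ran from 2.03, with scaling to the spikes, to 3.26, with scaling to the median. Its signals lie above every floor used, so other floors and choices of probe set could not change the ratio. Hmox1 has 1 probe set, so no other reading of the gene could be set beside it.

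Glutathione is made by glutamate-cysteine ligase, whose catalytic subunit is Gclc and whose modifier subunit, which raises the enzyme's efficiency, is Gclm. Gclc read 1516 in suspension and 1076 on fibronectin, 1.41-fold lower. Gclm had 250 in suspension, below the floor, and 925 on fibronectin, and was at least 1.89-fold higher. The subunits of 1 enzyme thus had opposite ratios, both within the range of the negative controls. In suspension Gclc stood above all 34 negative controls of that array, and on fibronectin 31 of the 34 were dimmer than Gclc and 30 dimmer than Gclm. Gclm counts as measured through the fibronectin array alone, so its ratio could not have been below 0. Its ratio also moved most with the floor: with none it was 3.70-fold, and with the floor at the 60th percentile it was not measured. Gsr, the glutathione reductase, which returns oxidised glutathione to its reduced form, had 2798 in suspension and 3937 on fibronectin, above all negative controls. This is a log2 ratio of 0.49, or 1.20 times the SD between probe sets of bright genes. Of 1073 genes of like signal 18.8% had a ratio at least as high. With scaling to the spikes the log2 ratio of Gsr was 0.019, where the median of all measured genes was -0.51.

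Thioredoxin, the product of Txn1, reduces disulfides in peroxiredoxins and many other proteins, and Txnrd1 encodes the selenoprotein that reduces thioredoxin in the cytosol. Txn1 read 19176 in suspension and 12578 on fibronectin and was 1.52-fold lower. Txnrd1 had 3382 and 5446 and was 1.61-fold higher. The carrier and its reductase thus lay on opposite sides of 0, at log2 ratios of -0.61 and 0.69, and all 4 signals stood above the negative controls. Each difference was 1.48 and 1.67 times, in that order, the SD between probe sets of bright genes. Among genes of like signal, 6.41% of 156 had a ratio as low as that of Txn1 or lower, and 11.4% of 848 one as high as that of Txnrd1 or higher. Both kept their side of 0 under the other scalings, with log2 ratios from -1.08 to -0.40 for Txn1 and from 0.21 to 0.89 for Txnrd1. Each has 1 probe set above every floor, so other floors and choices of probe set could not move its ratio. At the lower end, with scaling to the spikes, Txn1 was past 2-fold.

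Cat encodes catalase, the peroxisomal enzyme that splits hydrogen peroxide. Its brighter probe set had 2427 in suspension and 1571 on fibronectin, 1.54-fold lower. The suffix of that probe set (_f_at) marks probes shared within a sequence family. The other probe set had 462 and 634, with suspension below the floor, and was at least 1.30-fold higher. It reached the floor on fibronectin alone, so its ratio could not have been below 0. The readings go in opposite directions, and on fibronectin 31 and 24 of the 34 negative controls were dimmer, so no direction of Cat was settled. Sod1, the copper-zinc dismutase of the cytosol, was bright in both arrays, with 20790 in suspension and 16531 on fibronectin, a log2 ratio of -0.33. Sod2, the manganese dismutase of mitochondria, had 916 and 1626, 1.78-fold higher. The dismutases of the 2 compartments thus had opposite ratios. That of Sod1 was below the SD between probe sets, at 0.80 times it, while Sod2 lay among the negative controls, 25 of which were dimmer in suspension and 31 on fibronectin. With scaling to the median Sod2 reached 2.05-fold, and it was not measured when the floor was set by the negative controls.

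**Figure D2:**
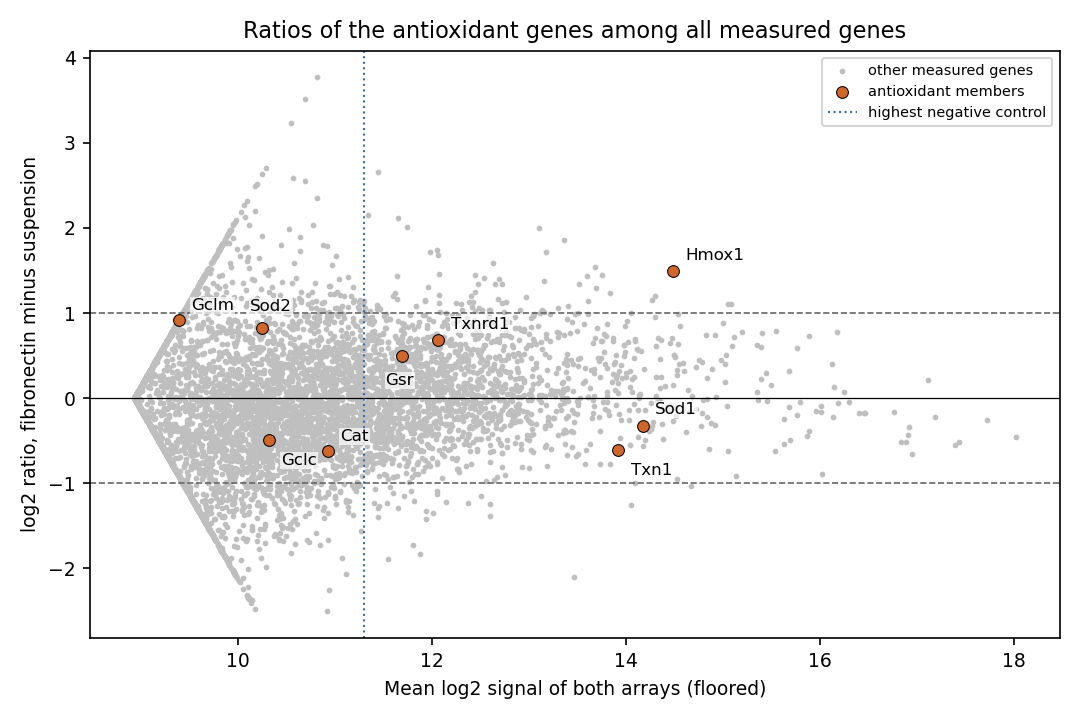
Log2 ratio (fibronectin minus suspension) against mean floored log2 signal for all 6385 measured genes (grey) and the 9 antioxidant genes (orange), with 2-fold lines (dashed) and the highest negative control (dotted). Hmox1, at 1.497, lies above the other genes of its brightness, while the other 8 genes lie between -0.63 and 0.92.

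Of the 5 antioxidant genes above all negative controls in both arrays, Hmox1, Txnrd1 and Gsr were higher on fibronectin and Txn1 and Sod1 lower. Their median log2 ratio was 0.49, against 0.07 over all 1518 genes as bright. The 0.49 is the value of Gsr, which is also the middle of all 9, so both medians are the same reading. Scaling to the median moved the median of all genes by 0.19, to 0.11, and scaling to the spikes, which were brighter on the fibronectin array by 0.47 on the log2 scale, moved it to -0.51. Past 2-fold, the main scaling gave 370 higher and 592 lower genes. Median scaling gave 596 and 405, quantile normalization 468 and 450, loess 462 and 440, and the spikes 134 and 1409. Within the antioxidant genes the count of 5 above 0 and 4 below was the same under each of these scalings, and past 2-fold it was 1 higher and 0 lower under the main scaling, 3 and 0 under median scaling and loess, 2 and 0 under quantile normalization and 1 and 2 with the spikes. Gclm, 1 of the 5, reached the floor on fibronectin alone under each scaling, so its sign was fixed in advance. It is among the genes past 2-fold under median scaling, loess and quantile normalization.

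**Figure D3:**
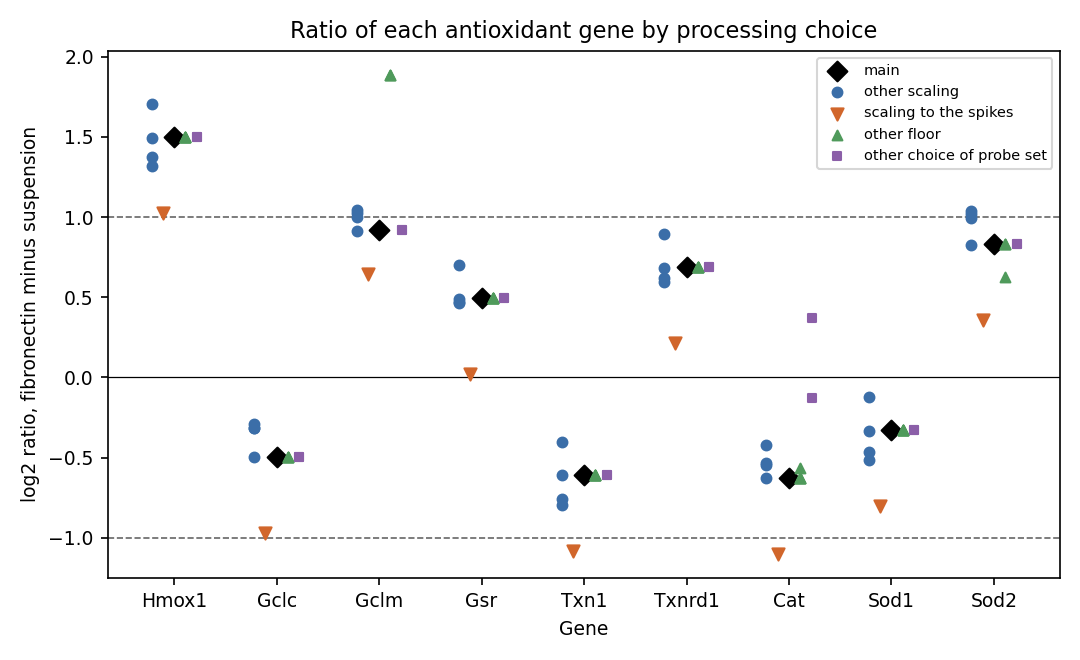
Log2 ratio (fibronectin minus suspension) of each antioxidant gene under the main processing (diamonds), other scalings (circles), scaling to the spikes (orange triangles), other floors (green triangles) and other choices of probe set (squares), with 2-fold lines dashed. Hmox1 stays past 2-fold under every scaling, from 1.02 to 1.70, and other floors and choices of probe set could not move it. Cat is the one gene with values on both sides of 0.

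Of 10 measured genes that regulate NRF2, 8 were above 0 and 2 below, with a median log2 ratio of 0.29, and none passed 2-fold. Of all 6385 measured genes 2870 were above 0 and 3515 below. Nfe2l2, NRF2 itself, went from 4227 to 5569, a log2 ratio of 0.40, and its relative Nfe2l1 was 1.43-fold higher in its brighter probe set and 2.14-fold in the other. The repressor gene Bach1 was 1.51-fold higher in its brighter probe set. The other, at least 1.62-fold higher, reached the floor on fibronectin alone, so its ratio could not have been below 0. Sqstm1, a cargo receptor of autophagy that binds KEAP1, had signals of 13108 and 17342, a log2 ratio of 0.40. The signals of Bach1 lay in the range of the negative controls. Keap1 was at least 1.23-fold lower, with 603 in suspension and 131 on fibronectin, within the range of the negative controls. It reached the floor in suspension alone, so its ratio could not have been above 0. The small MAF gene Mafg was 1.66-fold higher in 1 probe set, while its other one read 1.90-fold lower, with all 4 signals in that range. With scaling to the spikes the median of these genes was -0.18, with 3 above 0 and 7 below. The median of all measured genes was then -0.51, against -0.09 in the main processing.

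Of 14 measured genes among other targets of NRF2, 7 were above 0 and 7 below, with a median of -0.015, and none passed 2-fold. This split moved with the scaling: it was 10 above and 4 below under median scaling (median 0.19), 5 and 9 under quantile normalization and loess, and 1 and 12 with the spikes (median -0.53). All measured genes had a median of 0.11 under median scaling and -0.51 with the spikes. In the main processing Ephx1, 1 of the 7 above 0, reached the floor on fibronectin alone, and Blvra, 1 of the 7 below, in suspension alone. Their signs were thus fixed in advance. The metallothionein genes Mt1 and Mt2, which bind metals and respond to oxidative stress, had log2 ratios of -0.060 and 0.030. Fth1, the heavy chain of the iron store ferritin, had -0.15 in its brighter probe set, with signals of 67386 and 60811. Its other probe set, also above all negative controls, read 1.62-fold lower. Among the sources of NADPH the malic enzyme gene Me1 was 1.54-fold higher, the transketolase gene Tkt had a log2 ratio of 0.46, and the transaldolase gene Taldo1 was 1.68-fold lower, within the range of the negative controls. Hmox2, the constitutive heme oxygenase, went from 1202 to 835, a log2 ratio of -0.53, also within that range. Hmox1 and these targets thus differ in size of ratio, and that difference was not tested.

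Among 25 measured genes of the wider glutathione system 8 were above 0 and 17 below, with a median of -0.11. Of these, 2 of the 8 (Ggt5 and Hagh) reached the floor on fibronectin alone. A further 2, of the 17 (Gstm6 and Slc7a11), reached it in suspension alone, so these signs were fixed in advance. Past 2-fold were 2 on each side, against 5.79% higher and 9.27% lower of all measured genes. Slc7a11 is among the 2 lower. Gstm2, a glutathione transferase, was 2.11-fold higher, from 3776 to 7962, while its other probe set read 1.58-fold lower. The glutathione conjugate exporter gene Abcc1 was 2.27-fold higher, from 660 to 1501. The peroxidase gene Gpx2, known from gut epithelium, was 2.56-fold lower, and Slc7a11, the cystine importer that feeds glutathione synthesis, at least 2.44-fold lower, from 1195 to 137. The signals of Abcc1, Gpx2 and Slc7a11 lay in that range too, and none of the 3 passed 2-fold once the floor was raised to the 60th percentile. Gpx1 and Gpx4, the cytosolic peroxidase and the one that acts on membrane lipids, had log2 ratios of -0.60 and -0.020. With scaling to the median the median of the list was 0.095, against 0.11 over all measured genes, with 14 above 0 and 11 below. Past 2-fold were 3 higher and 2 lower, against 9.33% and 6.34% of all measured genes. With the spikes the median of the list was -0.57, against -0.51 over all measured genes, with 4 above and 22 below. Past 2-fold were then 0 higher and 5 lower, against 2.11% and 22.1% of all measured genes.

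In the thioredoxin and peroxiredoxin system 3 of 11 measured genes were above 0 and 8 below, with a median of -0.38, and none passed 2-fold. Under the spike scaling the list had a median of -0.85, with 1 above and 10 below, and 5 were past 2-fold on the lower side. Under that scaling 22.1% of all measured genes were past 2-fold lower, and their median was -0.51. Prdx4, the peroxiredoxin of the endoplasmic reticulum, was 1.55-fold higher, from 6931 to 10777, and Prdx2 had a log2 ratio of 0.25. Txnip, which binds and inhibits thioredoxin, was 1.65-fold lower in its brighter probe set, against a log2 ratio of -0.26 for the other. Selenow, a small selenoprotein, was at least 1.83-fold lower, from 897 to 383, within the range of the negative controls. It reached the floor in suspension alone, so its ratio could not have been above 0. Txn2, the mitochondrial thioredoxin, had -0.38 and thus lay on the side of Txn1. Srxn1, the sulfiredoxin that repairs overoxidised peroxiredoxins, was 1.86-fold lower in 1 probe set, and the other read 1.61-fold higher. Of 8 measured genes that make superoxide or assist its removal 2 were above 0 and 6 below, with a median of -0.35 and none past 2-fold. Cybb, 1 of the 2 above 0, reached the floor on fibronectin alone, and Aox1, 1 of the 6 below, in suspension alone. Their signs were thus fixed in advance. With the spikes 7 were measured, with a median of -0.81, and 2 were past 2-fold on the lower side, against 22.1% of all measured genes. Cyba, a membrane subunit of NADPH oxidases, was 1.59-fold and 2.07-fold higher in its 2 probe sets. Rac2 and Sod3, the extracellular dismutase, were 1.99-fold and 1.58-fold lower. Ccs, the chaperone that loads copper into Sod1, had a log2 ratio of -0.34 in its brightest probe set, and another read 3.58-fold lower. Its further measured probe sets read at least 2.25-fold and at least 1.14-fold lower. Both reached the floor in suspension alone, so their ratios could not have been above 0. The signals of Rac2, Sod3, Srxn1 and Ccs lay in the range of the negative controls, as did that of Txnip on fibronectin.

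**Figure D4:**
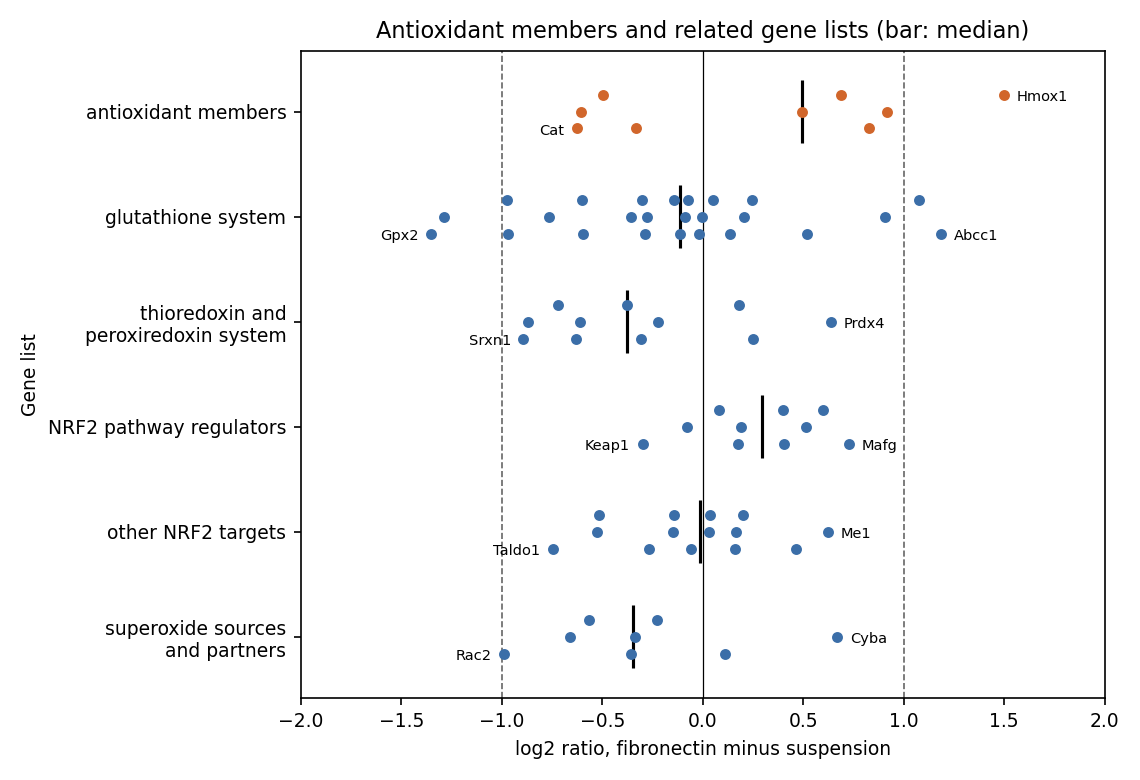
Log2 ratio (fibronectin minus suspension) of the 9 antioxidant genes (orange) and of the measured genes of 5 related lists (blue), with the median of each list as a bar and 2-fold lines dashed. The antioxidant genes have a median of 0.49, from -0.63 (Cat) to 1.497 (Hmox1), and the list medians run from -0.38 to 0.29.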

How the data were processed

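Total RNA of 3T3 cells was hybridised to 1 Affymetrix MG_U74Av2 array per group. The deposited values are intensities, 1 per probe set, made by the authors with MAS5 per the submitters' processing notes, of which the sources used here state neither the version nor the scaling target. The other deposited files hold settings of the instruments as text. The titles of the samples gave the groups. The arrays were scaled to 1 common 2% trimmed mean of their 12422 probe sets other than controls, and signals below 490 were set to that floor before log2 was taken. Where only 1 array reached the floor, the fold is a bound ("at least"). Of 12488 probe sets, 10855 had 1 gene, 396 several and 1237 none. A gene was read from its probe set with the highest mean log2 signal. The members and lists were chosen with earlier results of these data known. Named were all members, the 3 genes of each related list with the largest absolute ratio and any past 2-fold; further genes were added for their role after their values were seen. No test between groups is possible with 1 array each, and the number of arrays limits the precision. The steps were tested on simulated data. Python 3.11.15, pandas 2.3.3 and statsmodels 0.14.6 were used, and results were recomputed under 12 other settings and 1 chosen after seeing the data.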

Additional observations from a re-analysis of the deposited data

How the results depend on the processing

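No paired analysis was possible because each group has 1 array, and for the same reason no array could be left out. Hmox1 kept its direction and its side of 2-fold under every scaling. Other floors and choices of probe set could not change its ratio, since its 1 probe set lies above every floor. The count of antioxidant genes at least 2-fold higher, 1 in the main processing, was 3 under median scaling and loess, 2 under quantile normalization, with the floor at the 20th percentile and with no floor, 4 at a 1.5-fold threshold and 0 at 3-fold. Of all measured genes 5.79% were past 2-fold higher in the main processing. In the order given, the other settings had 9.33%, 7.23%, 7.33%, 10.6%, 11.3%, 15.9% and 1.38%. The counts of antioxidant genes under median scaling, loess and quantile normalization and at 1.5-fold include Gclm, which there reached the floor on fibronectin alone. The count at least 2-fold lower, 0 in the main processing, was 2 with scaling to the hybridisation spikes and 2 at a 1.5-fold threshold. Of all measured genes the shares on that side were 9.27%, 22.1% and 22.6%, in that order. The median log2 ratio of the antioxidant genes was 0.019 with scaling to the spikes, against -0.51 over all measured genes. Without probe sets of shared or irregular probes, an alternative chosen after seeing the data, Cat turned from -0.63 to 0.37 on the log2 scale, since its other probe set was then read. Of 95 values of single genes under the alternatives, 83 moved by less than 0.41 on the log2 scale, the SD between probe sets of bright genes, 11 moved by more with the same sign and 1 reversed. These are not separate checks. A gene with 1 probe set above every floor could not move under other floors or choices of probe set. Scaling to the spikes moved all genes above the floor in both arrays by the same 0.47. Gclm, Gclc, Sod2 and Cat rest on signals within the range of the negative controls, so what their ratios can show is limited by background.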

Other observations

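Genes of heme and iron handling other than Hmox1 were read after its value was seen, as a list chosen at that point. Of 22 genes 19 had a probe set of their own and 18 were measured, 12 with a ratio above 0 and 6 below, with a median log2 ratio of 0.25. Uros, Ppox, Cpox and Ireb2, 4 of the 12 above 0, were measured through the fibronectin array alone, so their ratios could not have been below 0, and Blvra and Hpx, 2 of the 6 below 0, through the suspension array alone. By 1.5-fold or more, 4 were higher and 0 lower, and 2 were past 2-fold on the higher side, against 15.9%, 22.6% and 5.79% of all measured genes. Of these, 2 of the 4 (Uros and Ppox) and 1 of the 2 (Uros) are among the genes measured on fibronectin alone. Fth1 is counted by its brighter probe set, while its other one read 1.62-fold lower. The median was 0.42 under median scaling, with 14 above 0 and 4 below, and -0.21 with scaling to the spikes, with 7 above and 10 below and 0 past 2-fold. Over all measured genes the median was 0.11 under median scaling and -0.51 with the spikes. With the spikes 2.11% of all measured genes were past 2-fold higher and 22.1% lower. Pgrmc1, a heme-binding membrane protein, was 2.16-fold higher, from 3445 to 7427. Slc11a2, the iron transporter DMT1, was 1.64-fold higher in its brighter probe set and 1.97-fold in the other, with signals of 3506 and 5746 in the former. Cp, the ferroxidase ceruloplasmin, had signals of 13490 and 19648, a log2 ratio of 0.54, and Tfrc, the transferrin receptor, 4850 and 6933, a log2 ratio of 0.52. Alas1 and Alad, which encode the first enzymes of heme synthesis, had log2 ratios of -0.24 and 0.26. Uros, a later enzyme of that pathway, was at least 2.47-fold higher, from 438 to 1211, below the brightest negative controls. The others below 0 were Hmox2 and Fth1, with the values given above, Blvra, a biliverdin reductase, at least 1.43-fold lower, Hpx, the heme carrier hemopexin, at least 1.37-fold lower, and the exporter gene Abcg2, with a log2 ratio of -0.054.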
